A study of Danio rerio with 6 samples.

Results

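The cells described here are GFP+ ‘Mosaic’ cells, scattered through otherwise normal zebrafish gastrulae and carrying a constitutively active β-catenin (β-catCA), set against cells of ‘Uninjected’ embryos. The comparison is between 4 of the 6 libraries of the series, 2 per group. It covers the 3905 of 32266 genes whose mean expression value reached the minimum of 2 over all 6 libraries. It asks which genes differ between cells whose Wnt/β-catenin activity was raised among normal neighbours and ordinary cells of the same stage. The cells were sorted by FACS, and each library was made by CEL-Seq2, a method that tags the 3' end of each transcript.

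All embryos were of the AB strain and were labelled 9 h post fertilization, and the sorted material was labelled as early embryonic cells. The study's methods place the dissociation of the embryos at a slightly earlier stage than the labels do. ‘Mosaic’ embryos had been injected as zygotes with a plasmid in which an *hsp70l* heat-shock promoter drives membrane GFP and β-catCA, followed by a heat shock, so that GFP marked the cells that carried it. ‘Ubiquitous’ embryos came from a transgenic line with a heat-shock-driven GFP and β-catCA cassette. The ‘Ubiquitous’ libraries counted toward the mean expression value and toward the spread that the test used, and their values are set alongside. ‘Uninjected’ cells carried no transgene, and whether they were heat-shocked is not given in the sources used here. Cells of many embryos were pooled in each group, and no library of injected cells with GFP alone was analysed. Hence β-catCA, plasmid injection, GFP sorting and heat shock cannot be told apart in this comparison. The titles number the 2 libraries of each group as lots, called library 1 and library 2 here, without saying whether a lot is a batch of embryos, a sort or a library preparation. Hence p-values measure the spread between libraries, which may be technical.

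Wnt ligands stabilise β-catenin, which enters the nucleus and works with TCF/LEF factors to switch on target genes. In the zebrafish gastrula this activity is graded along the head-to-tail axis, low where the forebrain and eyes arise and high at the posterior margin. Experimental activation of the pathway is known to suppress anterior neural fates and to favour hindbrain and trunk fates, and many of its targets encode feedback inhibitors. β-catenin also links cadherins to the cytoskeleton at cell junctions.

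The deposited values were regularized logarithms (rlog), log2-scale values in which a gene's low counts are drawn toward its mean. Hence differences of weakly expressed genes are understated, and so is the spread between their libraries. Counts were inferred from them, and the 6 inferred values lay within 0.1 of whole numbers for 98.69% of the 14132 genes not listed at 0. Inferred totals were 217242 and 240220 counts in ‘Mosaic’ libraries 1 and 2, and 58352 and 489311 in ‘Uninjected’ libraries 1 and 2. No count was found for 194 of the tested genes in ‘Uninjected’ library 1, against 3 in each ‘Mosaic’ library and 0 in ‘Uninjected’ library 2. Ratios of pooled shares are given below as counts over the total of both libraries of a group. Their 95% exact binomial intervals cover counting error only, and ‘Uninjected’ library 2 carries most of the pooled ‘Uninjected’ counts.

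The introduced β-catenin messages could not be checked. By the study's methods β-catCA is a mouse β-catenin that lacks its N-terminus, while reads were aligned to the zebrafish genome. It is not given whether any reads of the cassette were counted under the endogenous gene. *CTNNB1* (β-catenin) had rlog values of 8.24 and 8.29 in ‘Mosaic’ and 8.14 and 7.60 in ‘Uninjected’. The groups did not overlap, as for 43.1% of all genes tested, and the difference of 0.40 (SE 0.25) did not pass the test (adjusted p = 0.578).

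Of the 3905 genes tested, 54 passed at an adjusted p under 0.1, which is 1.38% of all genes. Among them, 21 (0.538% of all tested) rose in ‘Mosaic’ cells and 33 (0.845%) fell. The rises ranged from 0.79 to 1.8 and the falls from -0.76 to -2.69 on the rlog scale, against a median of 0.02 over all tested genes. Both ‘Mosaic’ libraries lay on the same side of both ‘Uninjected’ libraries for all 54 genes, as they did for 43.1% of all genes tested. An unadjusted p under 0.05 was found for 440 genes. The genes that fell most encode regulators of the eye field and forebrain and proteases of the cathepsin L family. Those that rose most encode a stress-responsive transcription factor, small heat-shock and hindbrain-patterning proteins and a ubiquitin ligase. On leaving out each library in turn, 17 of the 54 passed every time, namely *rx3*, *otx2a*, *OTX1*, *six7*, *shisa2a*, *ctslb*, *si:dkey-269i1.4*, *si:dkey-26g8.4*, *zgc:174153*, *zgc:174154*, *zgc:174855*, ENSDARG00000087651, ENSDARG00000039173, *foxo3b*, *LNX1*, *hoxb1b* and *HSPB8*. The other 37 kept their direction and lost the call in at least 1 of these fits, with 28 genes passing in all without ‘Mosaic’ library 1 and 25 without ‘Mosaic’ library 2. Of the 54 genes, 4 (*DND1*, *zgc:174153*, ENSDARG00000039173 and *ZNF704*) reached the minimum mean rlog of 2 only through the ‘Uninjected’ libraries, so they entered the test because they were higher there.

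**Figure D1:**
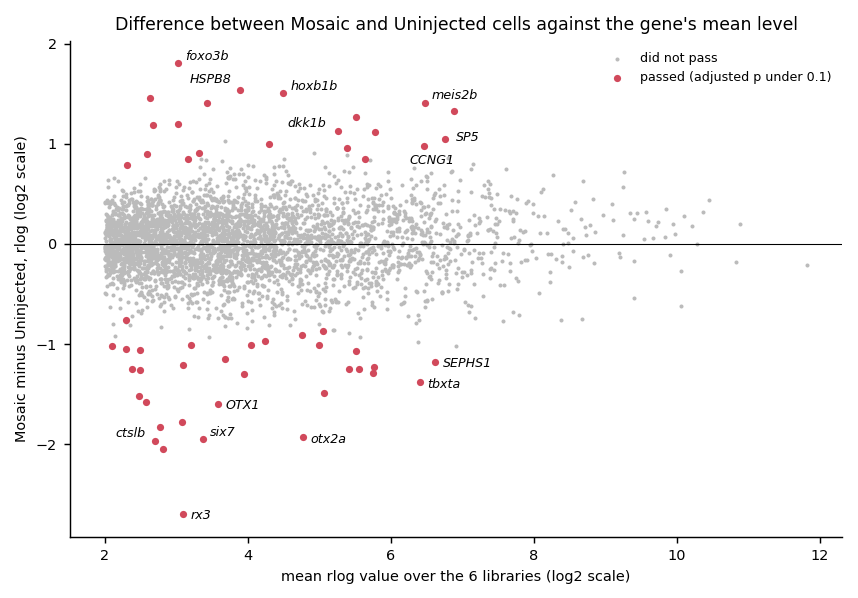
Difference between ‘Mosaic’ and ‘Uninjected’ cells on the rlog scale (y axis, log2) against the mean rlog value over the 6 libraries (x axis, log2), each point 1 of the 3905 genes tested. The 54 genes that passed are in red, with 21 above 0 and 33 below, and *rx3* at -2.69 and *foxo3b* at 1.8 are the outermost.

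Among regulators of the anterior neural plate and eye field, 5 of 12 tested genes fell in ‘Mosaic’ cells (*rx3*, *otx2a*, *OTX1*, *TCF7L1* and *SFRP1*) and none rose. The other 7 did not pass, with differences from -0.42 to 0.62. In all, 10 of the 12 had a negative difference, as did 1823 of the 3905 genes tested. The median of the list was -0.41, against 0.02 over all genes. Without ‘Uninjected’ library 2 that median was -0.07, and without ‘Uninjected’ library 1 it was -0.91. In pooled cells, a smaller share of anterior cells and less of these transcripts per cell cannot be told apart.

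*rx3* (ENSDARG00000052893), the homeobox gene that specifies the eye field, showed the largest fall among the genes that passed. Its inferred counts were 0 and 3 in ‘Mosaic’ and 17 and 191 in ‘Uninjected’, and its rlog values were 1.94 and 2.29 against 4.59 and 5.03. Both ‘Uninjected’ libraries stood far above both ‘Mosaic’ libraries in spite of their unequal depth. The difference was -2.69 (SE 0.26, adjusted p = 1.51e-05), and the pooled share of counts was 57.9-fold higher in ‘Uninjected’ cells (95% interval 19.5 to 283).

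*otx2a* (ENSDARG00000030703) and *OTX1* (ENSDARG00000094992), Otx homeobox genes of the forebrain and midbrain, fell together with it. The rlog values of *otx2a* were 3.91 and 4.11 in ‘Mosaic’ and 5.96 and 5.92 in ‘Uninjected’, from 14, 20, 31 and 259 counts. Those of *OTX1* were 3.22 and 2.88 against 4.63 and 4.67. For each gene the libraries of a group lay close together and the groups were well apart. The differences were -1.93 for *otx2a* (SE 0.24, adjusted p = 0.000287) and -1.60 for *OTX1* (SE 0.23, adjusted p = 0.000711).

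*six7* (ENSDARG00000070107), a sine oculis-family homeobox gene expressed in the anterior neural plate, had rlog values of 2.80 and 2.98 in ‘Mosaic’ and 4.56 and 5.11 in ‘Uninjected’. It had 6 and 9 counts in the ‘Mosaic’ libraries, and 15 and 192 in the ‘Uninjected’ libraries. The difference was -1.95 (SE 0.29, adjusted p = 0.000961). *shisa2a* (ENSDARG00000034138) belongs to the Shisa family, whose founding member in Xenopus holds back Frizzled and FGF receptors in the secretory pathway and promotes head formation. Its rlog values of 4.29 and 4.63 in ‘Mosaic’ lay below 5.98 and 5.91 in ‘Uninjected’, a difference of -1.48 (SE 0.25, adjusted p = 0.00363).

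**Figure D2:**
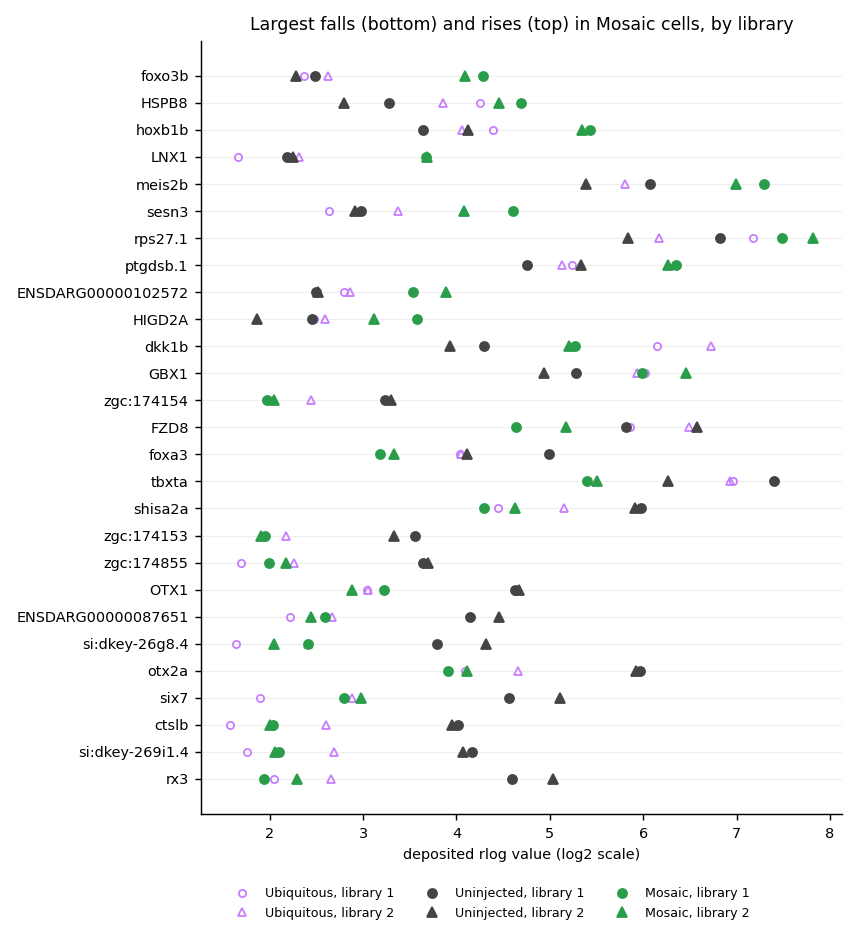
Deposited rlog values (x axis, log2 scale) of the 15 largest falls (lower rows) and 12 largest rises (upper rows) among the genes that passed, with circles for library 1 and triangles for library 2 of each group. ‘Mosaic’ points (green) and ‘Uninjected’ points (black) do not overlap in any row, since the rows were chosen among genes without overlap. For *rx3* they lie at 1.94 and 2.29 against 4.59 and 5.03.

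A run of cathepsin L-like proteases fell by similar amounts. *ctslb* (ENSDARG00000074306), a cathepsin L gene known as a marker of the hatching gland, the anterior mesendodermal tissue that later secretes the enzymes that open the chorion, had rlog values of 2.04 and 2.0 in ‘Mosaic’ and 4.02 and 3.95 in ‘Uninjected’. Its inferred counts were 2, 2, 13 and 87, and its difference was -1.97 (SE 0.26, adjusted p = 0.000376). *si:dkey-269i1.4* (-2.04), *si:dkey-26g8.4* (-1.83), *zgc:174855* (-1.58), *zgc:174153* (-1.52, tested only because it was higher in ‘Uninjected’) and *zgc:174154* (-1.26) fell as well. In the RefSeq annotation of the GRCz12tu assembly all these genes lie with *ctslb.4* on chromosome 12, in a stretch with 17 protein-coding genes from the first to the last. Such copies are close in sequence, so reads may be shared among them and the number of separate changes is uncertain. Of the 7 genes of the run, 6 have ctsl or catL among their symbols or synonyms, so the name cathepsin L-like is uncertain for 1.

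The rlog values of *si:dkey-269i1.4* were 2.1 and 2.06 in ‘Mosaic’ and 4.17 and 4.07 in ‘Uninjected’ (adjusted p = 0.000287). Those of *si:dkey-26g8.4* were 2.41 and 2.05 against 3.79 and 4.32 (adjusted p = 0.000747). Each of the 6 cathepsin L-like genes had at most 5 counts in a ‘Mosaic’ library, so the depth limits the size of the fall more than its direction. The values of *zgc:174855* were 1.99 and 2.17 against 3.64 and 3.69, those of *zgc:174153* were 1.95 and 1.91 against 3.56 and 3.33, and those of *zgc:174154* were 1.97 and 2.05 against 3.24 and 3.30. Another pair of genes that the tables used here do not name, ENSDARG00000087651 (-1.78) and ENSDARG00000039173 (-1.24), fell to a like extent, the former with rlog values of 2.59 and 2.44 against 4.14 and 4.45. The latter was tested only because it was higher in ‘Uninjected’.

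Among 5 tested hatching gland genes, *ctslb* and *XBP1* fell and none rose. *XBP1*, the transcription factor of the unfolded protein response, which is also active in secretory cells, had rlog values of 5.34 and 4.82 in ‘Mosaic’ and 6.34 and 6.28 in ‘Uninjected’, a difference of -1.23 (SE 0.24, adjusted p = 0.0109). Without ‘Mosaic’ library 2 its difference was -0.96 and the call was lost (adjusted p = 0.354). The summed level of the hatching gland list was 1284.3 and 945.0 CPM (a library's counts scaled to a common total) in ‘Mosaic’ and 1559.5 and 1890.4 in ‘Uninjected’. The groups did not overlap, as for 43.1% of single genes tested. That sum includes the 2 genes that fell. *XBP1* alone had 230.2 and 133.2 CPM in ‘Mosaic’ and 565.5 and 584.5 in ‘Uninjected’, and *ctslb* 9.2 and 8.3 against 222.8 and 177.8. Hence the sum is not separate from these 2 calls, and a fall of the rest of the list was not tested.

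Of 11 tested midbrain and hindbrain genes, 3 rose in ‘Mosaic’ cells (*hoxb1b*, *meis2b* and *GBX1*) and none fell. The other 8 did not pass, with differences from -0.74 to 0.44. In all, 9 of the 11 had a positive difference, as did 2082 of the 3905 genes tested, with a median of 0.28 for the list against 0.02 over all genes. Of 20 tested genes of the posterior body and tailbud, *hoxb1b* and *HOXB9* rose and *tbxta* fell, with 10 differences above 0 and 10 below it. The posterior list had a median of 0.00, and of -0.21 without ‘Uninjected’ library 2.

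*hoxb1b* (ENSDARG00000054033), a Hox gene of the hindbrain that is induced early in the gastrula, had 77 inferred counts in each ‘Mosaic’ library, against 1 and 51 in the ‘Uninjected’ libraries. Its rlog values were 5.43 and 5.34 in ‘Mosaic’ and 3.64 and 4.12 in ‘Uninjected’. The ‘Mosaic’ libraries nearly coincided, above both ‘Uninjected’ libraries. The difference was 1.5 (SE 0.24, adjusted p = 0.00205), and the pooled share was 3.55-fold higher (95% interval 2.57 to 4.95).

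*meis2b* (ENSDARG00000077840), which encodes a TALE homeodomain partner of Hox proteins, had rlog values of 7.29 and 6.99 in ‘Mosaic’ and 6.07 and 5.39 in ‘Uninjected’, a difference of 1.41 (SE 0.35, adjusted p = 0.0703). *GBX1* (ENSDARG00000071418), a homeobox gene of the anterior hindbrain, had 5.99 and 6.46 against 5.28 and 4.94, a difference of 1.12 (SE 0.24, adjusted p = 0.0219). The call for *meis2b* was lost without ‘Mosaic’ library 1, ‘Mosaic’ library 2 or ‘Uninjected’ library 2, with differences of 1.26, 1.56 and 1.07. The call for *GBX1* was lost without ‘Mosaic’ library 2 or ‘Uninjected’ library 2, with differences of 0.88 and 0.95.

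*HOXB9*, a Hox gene of the trunk, had rlog values of 3.10 and 3.27 in ‘Mosaic’ and 2.39 and 2.19 in ‘Uninjected’, a difference of 0.90 (SE 0.20, adjusted p = 0.0317). *PAX3*, a paired-box gene of the dorsal neural tube and neural plate border, had 3.63 and 3.60 against 2.61 and 2.92, a difference of 0.85 (SE 0.22, adjusted p = 0.095). Both genes were near the limit of what this depth resolves, with 1 and 0 counts in ‘Uninjected’ library 1. The call for *HOXB9* was lost without either ‘Mosaic’ library or without ‘Uninjected’ library 2 (differences 0.98, 0.81 and 0.79), and that for *PAX3* without either ‘Mosaic’ library or without ‘Uninjected’ library 1 (0.84, 0.87 and 0.70). Key posterior and hindbrain genes that did not pass were *cdx4*, a caudal homeobox gene of the tailbud (difference 0.33, adjusted p = 0.628), *meis3*, a hindbrain cofactor of Hox proteins (0.41, adjusted p = 0.471), and *irx7*, an Iroquois gene of the midbrain and hindbrain (-0.74, adjusted p = 0.289).

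**Figure D3:**
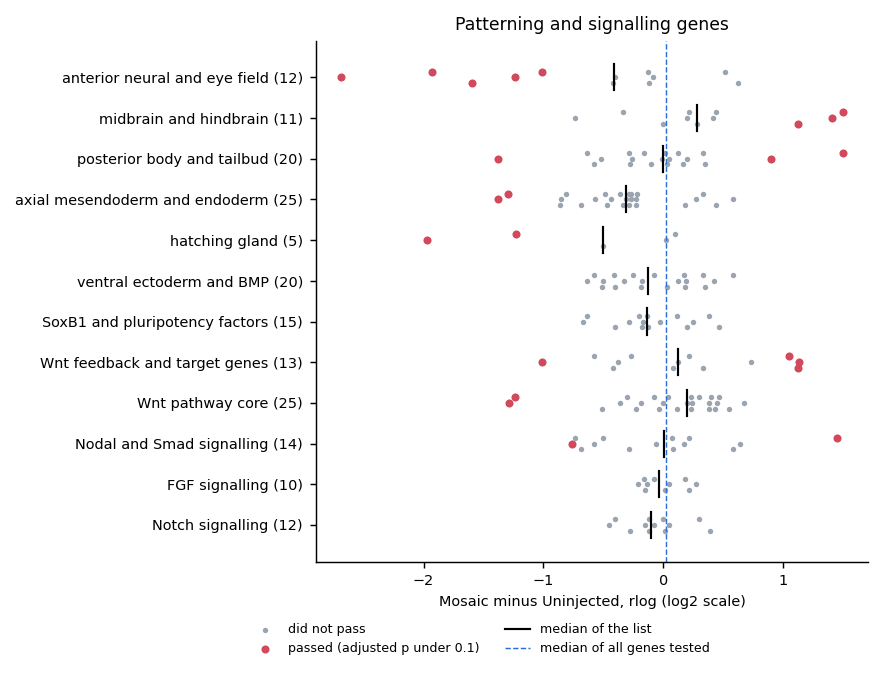
Difference between ‘Mosaic’ and ‘Uninjected’ cells (x axis, rlog, log2 scale) for every tested member of the patterning and signalling lists, each point a gene and each number in brackets the members tested. Red points passed, black bars mark list medians and the dashed line the median of all genes. The anterior neural list has 5 red points below 0 and its median at -0.41, and the midbrain and hindbrain list has 3 above 0 and its median at 0.28.

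Regulators of the Wnt pathway moved in both directions. Of 13 tested feedback and target genes, *dkk1b*, *SP5* and *GBX1* rose and *SFRP1* fell, with a median of 0.12. Of 25 tested core components of the pathway, *FZD8* and *TCF7L1* fell and none rose, with a median of 0.20. The targets that rose encode an inhibitor and transcription factors, and the genes that fell encode a receptor, a repressor and an inhibitor with anterior expression.

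*dkk1b* (ENSDARG00000045219), a secreted inhibitor of the Wnt co-receptor LRP6, had rlog values of 5.27 and 5.21 in ‘Mosaic’ and 4.29 and 3.93 in ‘Uninjected’, from 53, 54, 3 and 34 counts. The difference was 1.13 (SE 0.24, adjusted p = 0.0242). *SP5*, a zinc-finger target of Wnt signalling, had 6.99 and 7.04 against 6.24 and 5.70, a difference of 1.05 (SE 0.24, adjusted p = 0.0355). In both cases the ‘Mosaic’ libraries agreed closely and the ‘Uninjected’ libraries were lower and farther apart. Both calls were lost without either ‘Mosaic’ library or without ‘Uninjected’ library 2, with differences of 1.1, 1.17 and 0.95 for *dkk1b* and 1.08, 1.02 and 0.78 for *SP5*.

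*FZD8* (ENSDARG00000038569), a Frizzled receptor of the anterior neuroectoderm, had rlog values of 4.64 and 5.17 in ‘Mosaic’ and 5.81 and 6.57 in ‘Uninjected’, a difference of -1.29 (SE 0.29, adjusted p = 0.0311). *TCF7L1*, a TCF factor that represses Wnt targets and that the zebrafish needs for its forebrain, had 4.72 and 4.99 against 6.16 and 6.04, a difference of -1.24 (SE 0.22, adjusted p = 0.00633). *SFRP1*, a secreted Wnt-binding inhibitor, had 3.77 and 3.55 against 4.54 and 4.80, a difference of -1.01 (SE 0.24, adjusted p = 0.0443). All 3 genes were lower in each ‘Mosaic’ library than in each ‘Uninjected’ library. The groups were likewise apart for all 54 genes that passed and for 43.1% of all genes tested, in either direction. Calls were lost without ‘Mosaic’ library 1 for *TCF7L1* (difference -1.11), without ‘Mosaic’ library 1 or ‘Uninjected’ library 2 for *FZD8* (-1.02 and -0.91), and without either ‘Mosaic’ library or ‘Uninjected’ library 2 for *SFRP1* (-1.12, -0.90 and -0.88).

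Several classical Wnt targets did not pass. *NKD1*, an inhibitor of Dishevelled, had rlog values of 5.30 and 5.36 in ‘Mosaic’ and 4.87 and 4.32 in ‘Uninjected’ (difference 0.73, adjusted p = 0.251). *AXIN2*, a scaffold of the β-catenin destruction complex, had 3.44 and 3.03 against 3.47 and 2.83, and the groups overlapped (difference 0.08, adjusted p = 0.926). *LEF1*, a TCF/LEF factor and Wnt target, had a difference of -0.42 (adjusted p = 0.533).

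The mesendoderm forms notochord, prechordal plate and gut. Of 25 tested genes of axial mesendoderm and endoderm, *tbxta* and *foxa3* fell and none rose. The other 23 did not pass, with differences from -0.86 to 0.58. The difference was negative for 20 of the 25, against 1823 of all 3905 genes, with a median of -0.31 against 0.02 over all genes. *tbxta* (ENSDARG00000101576), the zebrafish Brachyury gene, needed for notochord and tail, had rlog values of 5.40 and 5.50 in ‘Mosaic’ and 7.40 and 6.26 in ‘Uninjected’. The ‘Uninjected’ libraries were far apart and both lay above the ‘Mosaic’ pair, with a difference of -1.38 (SE 0.29, adjusted p = 0.0205). *foxa3* (ENSDARG00000012788), a forkhead gene of the endoderm and prechordal plate, had 3.18 and 3.33 against 4.99 and 4.11, a difference of -1.30 (SE 0.27, adjusted p = 0.0172).

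Both mesendoderm calls were lost without either ‘Mosaic’ library or without ‘Uninjected’ library 1, with differences of -1.33, -1.43 and -0.81 for *tbxta* and -1.22, -1.37 and -0.85 for *foxa3*. *GSC*, the goosecoid gene of the organizer and prechordal plate, had rlog values of 2.91 and 2.79 in ‘Mosaic’ and 3.56 and 3.84 in ‘Uninjected’ and did not pass (difference -0.85, adjusted p = 0.123). It passed under 7 of the 14 alternatives it could be fitted in. Other key members that did not pass were *mixl1*, a homeobox gene of the early mesendoderm (-0.57), *FOXA2*, a forkhead gene of axial mesendoderm (-0.47), and *sox32*, which specifies endoderm (-0.34). The notochord gene *noto* (0.44) and the BMP antagonist *chrd* (0.33) had positive differences that did not pass. From the posterior list, *tbx16*, a T-box gene of the paraxial mesoderm, did not pass either (-0.52).

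In the Nodal and Smad list, 14 genes were tested, of which *LNX1* rose and *gdf3* fell, with a median of 0.01. The other 12 did not pass, with differences from -0.74 to 0.64, among them *skilb* (-0.74) and *pkdccb* (0.64). The study had named *LNX1*, *skilb* and *pkdccb* from these same libraries. Hence the call for *LNX1* is not separate support for the list. *LNX1* (ENSDARG00000043323), a ubiquitin ligase known for targeting Numb, had inferred counts of 32 and 35 in ‘Mosaic’, 0 and 11 in ‘Uninjected’ and 0 and 0 in ‘Ubiquitous’. Its rlog values were 3.67 and 3.68 in ‘Mosaic’ and 2.19 and 2.25 in ‘Uninjected’, with a difference of 1.45 (SE 0.23, adjusted p = 0.00157). The ‘Mosaic’ libraries stood above the other 4. *gdf3*, a maternally supplied partner of Nodal ligands, had rlog values of 1.98 and 1.85 in ‘Mosaic’ and 2.67 and 2.68 in ‘Uninjected’ (difference -0.76, SE 0.18, adjusted p = 0.0586). Its call was lost on leaving out any 1 of the 4 libraries, with differences from -0.69 to -0.82.

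A few genes of FoxO signalling and growth arrest rose. Of 18 tested members of this list, *foxo3b*, *sesn3* and *CCNG1* rose and none fell, with a median of 0.12 against 0.02 over all genes. The other 15 did not pass, with differences from -0.55 to 0.47. The study had named the genes that rose from these same libraries before the list was made. Hence their number is not read as a result about the class.

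*foxo3b* (ENSDARG00000042904), a forkhead factor activated by growth-factor withdrawal and oxidative stress, had inferred counts of 47 and 42 in ‘Mosaic’ and 0 and 8 in ‘Uninjected’. Its rlog values were 4.28 and 4.09 in ‘Mosaic’ and 2.48 and 2.28 in ‘Uninjected’. On the rlog scale no other gene that passed rose as much, while by pooled share *HIGD2A* rose 14.1-fold. The closeness of the ‘Uninjected’ values is in part made by rlog, which gave the library with 0 counts the higher value. Hence it does not measure the spread between libraries. The difference was 1.8 (SE 0.22, adjusted p = 0.000287), and the pooled share was 13.3-fold higher (95% interval 6.47 to 31.8).

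*sesn3* (ENSDARG00000015822), a sestrin that restrains mTOR signalling and limits oxidative damage, had rlog values of 4.61 and 4.08 in ‘Mosaic’ and 2.98 and 2.91 in ‘Uninjected’, a difference of 1.4 (SE 0.27, adjusted p = 0.01). *CCNG1*, a cyclin of the growth-arrest response, had 7.13 and 7.24 against 6.32 and 6.10, a difference of 0.98 (SE 0.25, adjusted p = 0.0845). Both genes were higher in each ‘Mosaic’ library than in each ‘Uninjected’ library, and 43.1% of all genes tested had groups that did not overlap, in either direction. Without ‘Mosaic’ library 1 the call for *sesn3* was lost (difference 1.14), and the call for *CCNG1* was lost without any 1 of the 4 libraries, with differences from 0.87 to 1.09.

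*PHLDA3*, an inhibitor of Akt, had rlog values of 2.77 and 2.88 in ‘Mosaic’ and 1.97 and 2.11 in ‘Uninjected’, a difference of 0.79 (SE 0.19, adjusted p = 0.0453). *mdm2*, a ubiquitin ligase, had 4.01 and 4.23 against 3.33 and 3.69 and did not pass (difference 0.61, adjusted p = 0.316). The groups did not overlap for either gene, as for 43.1% of all genes tested, in either direction. The call for *PHLDA3* was lost without any 1 of the 4 libraries, with differences from 0.72 to 0.86. None of 11 tested genes of the apoptosis machinery passed, with differences from -0.51 to 0.71.

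Of 22 tested heat-shock genes, *HSPB8* and *hsp90aa1.1* rose, none fell, and the median was -0.05. *HSPB8* (ENSDARG00000058365), a small heat-shock protein that works in chaperone-assisted autophagy, had rlog values of 4.69 and 4.46 in ‘Mosaic’ and 3.28 and 2.80 in ‘Uninjected’, from 48, 41, 1 and 11 counts. The difference was 1.53 (SE 0.25, adjusted p = 0.00208), and the pooled share was 8.88-fold higher (95% interval 4.84 to 17.8). *hsp90aa1.1*, an inducible Hsp90 that muscle also needs, had 4.78 and 4.68 against 3.69 and 3.79, a difference of 1.0 (SE 0.22, adjusted p = 0.0308). Its call was lost without either ‘Mosaic’ library or without ‘Uninjected’ library 1 (differences 0.95, 1.05 and 0.95).

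*hsp70l*, the heat-inducible gene whose promoter drove the transgene, was found at 4 and 10 counts in ‘Mosaic’ libraries 1 and 2, against 2 and 18 in ‘Uninjected’, and the groups overlapped (difference -0.06, adjusted p = 0.917). *HSPA8*, the constitutive Hsp70, had rlog values of 9.12 and 9.05 against 10.03 and 9.21 (difference -0.53, adjusted p = 0.487). *HSPB1*, a small heat-shock protein, had 10.74 and 10.72 against 10.70 and 9.88 (difference 0.44, adjusted p = 0.651). The list's summed level was 23126.3 and 24123.7 CPM in ‘Mosaic’, within the 19809.5 to 24232.2 of ‘Uninjected’. In ‘Ubiquitous’ cells the rlog values were 4.25 and 3.86 for *HSPB8* and 4.42 and 4.40 for *hsp90aa1.1*, above both ‘Uninjected’ libraries. Neither gene passed between ‘Mosaic’ and ‘Ubiquitous’ (adjusted p = 0.379 and 0.545). The part of heat shock in the differences from ‘Uninjected’ was not tested.

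Among 38 tested genes of the antioxidant, thiol and selenoprotein list, *sesn3* and *ptgdsb.1* rose and *SEPHS1* fell, with a median of 0.01. The list includes genes that the study had named from these same libraries in its part on reactive oxygen species, these 3 among them. Hence the calls are not separate support for the class. Other members so named did not pass, namely *aplnrb* (-0.81), *DKC1* (-0.37), *FABP3* (0.70) and *krt8* (0.29). *ptgdsb.1* (ENSDARG00000027088), a lipocalin-type prostaglandin D synthase, had rlog values of 6.35 and 6.27 in ‘Mosaic’ and 4.75 and 5.33 in ‘Uninjected’, a difference of 1.27 (SE 0.24, adjusted p = 0.00946). *SEPHS1*, a selenophosphate synthetase family member, had 6.06 and 5.67 against 7.19 and 6.91, a difference of -1.18 (SE 0.23, adjusted p = 0.0123). For both genes the gap between the groups was wider than the spread within either. Calls were lost without ‘Mosaic’ library 1 or ‘Uninjected’ library 1 for *ptgdsb.1* (differences 1.23 and 0.98) and without ‘Mosaic’ library 2 or ‘Uninjected’ library 1 for *SEPHS1* (-0.98 and -1.04).

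**Figure D4:**
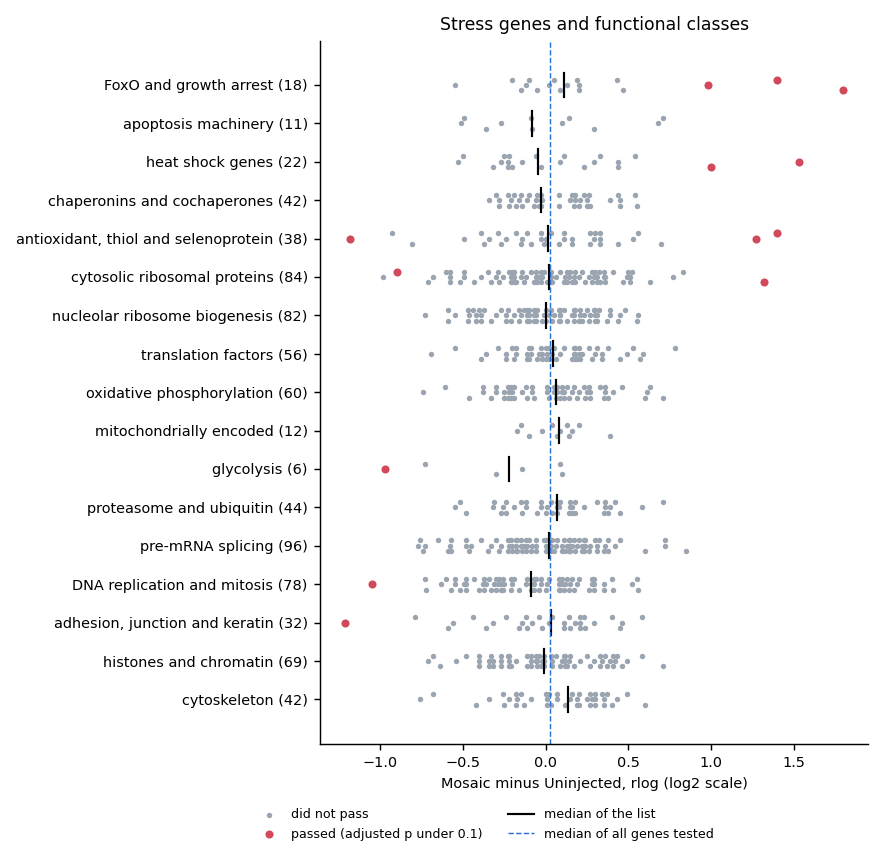
Difference between ‘Mosaic’ and ‘Uninjected’ cells (x axis, rlog, log2 scale) for every tested member of the stress and functional lists shown, drawn as for the patterning lists. Most medians lie close to the 0.02 of all genes, and the red points outside them include *foxo3b* at 1.8, *HSPB8* at 1.53 and *SEPHS1* at -1.18.

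Few genes of the large housekeeping classes passed. Of all genes tested 1.38% passed, so the counts below are not read as a result about the classes. Among 84 tested cytosolic ribosomal protein genes and scaffolds, *rps27.1* rose and *RACK1* fell, with a median of 0.02. None passed among 82 nucleolar ribosome biogenesis genes, 56 translation factors, 60 oxidative phosphorylation genes, 44 proteasome and ubiquitin genes, 96 splicing factors, 69 histone and chromatin genes and 42 cytoskeletal genes. Their medians ran from -0.01 for histones and chromatin to 0.14 for the cytoskeleton. With 2 libraries per group, smaller shifts of single genes were not detectable at this depth.

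*rps27.1* (ENSDARG00000023298), which encodes a small-subunit ribosomal protein, had rlog values of 7.49 and 7.82 in ‘Mosaic’ and 6.82 and 5.84 in ‘Uninjected’, a difference of 1.32 (SE 0.33, adjusted p = 0.0627). *RACK1*, a scaffold on the small ribosomal subunit, had 4.32 and 4.21 against 5.28 and 5.06, a difference of -0.90 (SE 0.22, adjusted p = 0.0627). The ‘Uninjected’ values of *rps27.1* were the more scattered. Calls were lost without either ‘Mosaic’ library for both genes, without ‘Uninjected’ library 2 for *rps27.1* and without ‘Uninjected’ library 1 for *RACK1*, with differences of 1.48, 1.16 and 0.84 for *rps27.1* and -0.96, -0.85 and -0.79 for *RACK1*. Whether counts of these genes are shared with similar loci was not tested.

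Enzymes of metabolism fell in single cases. *ALDOA*, a glycolytic aldolase, was the only 1 of 6 tested glycolysis genes to pass, with rlog values of 3.52 and 3.77 in ‘Mosaic’ and 4.64 and 4.58 in ‘Uninjected’ (difference -0.97, SE 0.23, adjusted p = 0.0443). *GAPDH* of the same pathway had a difference of -0.30 (adjusted p = 0.701). *pycr1b*, an enzyme of proline synthesis, had 2.92 and 3.16 against 4.18 and 4.2 (difference -1.15, SE 0.23, adjusted p = 0.0123). Both falls exceeded the spread within the groups. *HIGD2A* (ENSDARG00000052371), an assembly factor of cytochrome c oxidase, rose instead, with 3.58 and 3.12 against 2.45 and 1.86 (difference 1.19, SE 0.24, adjusted p = 0.0123). It had 29 and 18 inferred counts in ‘Mosaic’ and 1 and 3 in ‘Uninjected’, the latter close to the limit of detection. The call for *ALDOA* was lost without any 1 of the 4 libraries (-0.84 to -1.09), that for *pycr1b* without ‘Mosaic’ library 1 (-1.03), and that for *HIGD2A* without ‘Mosaic’ library 1 or ‘Uninjected’ library 2 (0.96 and 0.90).

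Junction and cell-cycle genes contributed 1 fall each, next to falls of 0.845% of all genes tested. *oclna*, an occludin of tight junctions, was the only 1 of 32 tested adhesion, junction and keratin genes to pass, with rlog values of 2.71 and 2.3 in ‘Mosaic’ and 3.83 and 3.60 in ‘Uninjected’ (difference -1.21, SE 0.23, adjusted p = 0.0109). *cdh1*, which encodes E-cadherin, had 4.78 and 5.01 against 4.73 and 4.16 and did not pass (difference 0.45, adjusted p = 0.503). *kif20a*, a kinesin of cytokinesis, was the only 1 of 78 replication and mitosis genes to pass, with 1.87 and 1.96 against 3.23 and 2.71 (difference -1.05, SE 0.22, adjusted p = 0.0172). It had 1 and 2 counts in ‘Mosaic’, close to the limit of detection. The call for *oclna* was lost without ‘Mosaic’ library 2 (-1.01), and that for *kif20a* without either ‘Mosaic’ library or without ‘Uninjected’ library 1 (-1.01, -1.1 and -0.80).

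Single genes for proteins that bind or modify RNA were also among the falls, with no list of RNA-binding proteins set beside them. *DND1*, a germ-plasm protein that protects germ-cell transcripts from microRNAs, was detected with 2 and 0 counts in the ‘Mosaic’ libraries, against 5 and 27 in ‘Uninjected’ (difference -1.02, SE 0.20, adjusted p = 0.0113). Its mean rlog over the ‘Mosaic’ and ‘Ubiquitous’ libraries was 1.85, so it was tested only because it was higher in ‘Uninjected’. Of the germ plasm list, 4 genes were tested, and *gtsf1* had a difference of -0.37 (adjusted p = 0.651). The summed level of the germ plasm list was 805.6 and 753.5 CPM in ‘Mosaic’ and 1045.4 and 1185.3 in ‘Uninjected’, with 6 of its 23 detected genes at 0 in both ‘Mosaic’ libraries and 1 at 0 in both ‘Uninjected’ libraries. The enveloping layer list had 5 genes at 0 in both libraries of ‘Mosaic’ and 3 in ‘Uninjected’, and the yolk syncytial layer list 3 and 4. Of all 14132 detected genes, 4571 and 4852 were at 0 in ‘Mosaic’ libraries 1 and 2 taken singly, against 8096 and 2419 in ‘Uninjected’. The most zeros were in ‘Uninjected’ library 1, the shallowest of them. The share of all genes at 0 in both libraries of a group was not computed, so the list counts are not read as a result. The part of a lower number of germ cells in the fall of *DND1* was not tested. *ELAVL2*, an RNA-binding protein of the ELAV family, had rlog values of 2.28 and 2.86 against 3.69 and 3.47 (difference -1.01, SE 0.24, adjusted p = 0.0499). *WTAP*, a subunit of the complex that methylates adenosines in mRNA, had 4.49 and 4.54 against 5.57 and 5.2 (difference -0.87, SE 0.23, adjusted p = 0.095). Calls were lost without ‘Mosaic’ library 2 or ‘Uninjected’ library 1 for *DND1* (-0.88 and -0.93), without ‘Mosaic’ library 1 or ‘Uninjected’ library 1 for *ELAVL2* (-0.72 and -0.90), and without either ‘Mosaic’ library or ‘Uninjected’ library 1 for *WTAP* (-0.84, -0.89 and -0.68).

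The remaining genes that passed belonged to no list. *METRN*, a secreted factor of the nervous system, had rlog values of 6.07 and 6.16 in ‘Mosaic’ and 5.23 and 5.29 in ‘Uninjected’ (difference 0.85, adjusted p = 0.095). *gnai1*, an inhibitory G-protein subunit, had 3.83 and 3.82 against 3.08 and 2.74 (difference 0.91, adjusted p = 0.0692). ENSDARG00000102572, listed as protein-coding in RefSeq, had 3.53 and 3.89 against 2.5 and 2.52 (difference 1.2, adjusted p = 0.00807). These 3 were higher in ‘Mosaic’, and the next 4 were lower. *cited4b*, a CITED-family partner of the co-activators CBP and p300, had 4.88 and 4.68 against 6.17 and 5.89 (difference -1.25, adjusted p = 0.0317). *DCAF7*, a WD-repeat adaptor, had 4.1 and 4.42 against 5.32 and 5.21 (difference -1.0, adjusted p = 0.0317). The zinc-finger gene *ZNF704* (difference -1.05, adjusted p = 0.0113) and *si:ch73-52f24.4*, a long noncoding RNA in RefSeq (difference -1.07, adjusted p = 0.0242), also fell, the former tested only because it was higher in ‘Uninjected’. Each of these 7 calls was lost without at least 1 of the 4 libraries. Differences then lay between 0.81 and 0.89 for *METRN*, 0.74 and 0.91 for *gnai1*, and -0.84 and -1.17 for *DCAF7*. They lay between -1.11 and -1.35 for *cited4b* and -0.87 and -1.19 for *si:ch73-52f24.4*, and were 1.01 for ENSDARG00000102572 and -0.81 for *ZNF704* without ‘Mosaic’ library 2.

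Markers of other cell types that the sort could hold were measured for the whole lists. None of 7 tested genes of the enveloping layer, the outer epithelium of the embryo, passed, and their summed level was 2932.2 and 2081.4 CPM in ‘Mosaic’ and 1748.0 and 3766.5 in ‘Uninjected’. None of 3 tested genes of the yolk syncytial layer passed, with 6886.3 and 5316.0 against 4267.2 and 5471.0. The groups overlapped for both lists. *SOX3*, a SoxB1 factor of early ectoderm, had rlog values of 6.67 and 6.87 in ‘Mosaic’ and 6.99 and 6.90 in ‘Uninjected’ and did not pass (difference -0.17, adjusted p = 0.848). None of 15 tested SoxB1 and pluripotency factors, 20 genes of ventral ectoderm and BMP signalling, 10 of FGF and 12 of Notch signalling passed.

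The same ‘Mosaic’ libraries were set against ‘Ubiquitous’ cells, taken from embryos that expressed β-catCA throughout. This comparison shares the ‘Mosaic’ libraries with the first, and 52 genes passed in it (1.33% of those tested). Of the 21 genes that rose over ‘Uninjected’, 9 were also higher than in ‘Ubiquitous’, 1 was lower and 11 did not pass. Of the 33 that fell, 6 were also lower than in ‘Ubiquitous’ and 27 did not pass.

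Higher in ‘Mosaic’ than in either group were *foxo3b* (1.69 over ‘Ubiquitous’, adjusted p = 0.00123), *LNX1* (1.69, adjusted p = 0.00123), *sesn3* (1.34), *CCNG1* (1.21), *hoxb1b* (1.16), *ptgdsb.1* (1.12), *HOXB9* (0.88), ENSDARG00000102572 (0.88) and *PHLDA3* (0.78). Lower than in either group were *tbxta* (-1.5, adjusted p = 0.025), *si:ch73-52f24.4* (-1.29), *FZD8* (-1.27), *DCAF7* (-1.19), *cited4b* (-1.09) and *SEPHS1* (-1.08). *dkk1b* lay between the groups, with rlog values of 6.15 and 6.72 in ‘Ubiquitous’, above the 5.27 and 5.21 of ‘Mosaic’ (difference -1.19, adjusted p = 0.034).

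None of the 12 tested anterior neural and eye field genes and none of the 6 cathepsin L-like genes passed between ‘Mosaic’ and ‘Ubiquitous’, while *FZD8*, which is in neither list, did (adjusted p = 0.0445). For *rx3* the difference was -0.24 (adjusted p = 0.721), for *otx2a* -0.36 (adjusted p = 0.537), for *OTX1* 0.01 (adjusted p = 0.993), for *six7* 0.50 (adjusted p = 0.482) and for *ctslb* -0.08 (adjusted p = 0.93). *rx3* had 3 and 0 inferred counts in ‘Ubiquitous’, next to 0 and 3 in ‘Mosaic’. The shallow ‘Ubiquitous’ library 2, with a total of 34540 counts, limits this comparison for weakly expressed genes.

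**Figure D5:**
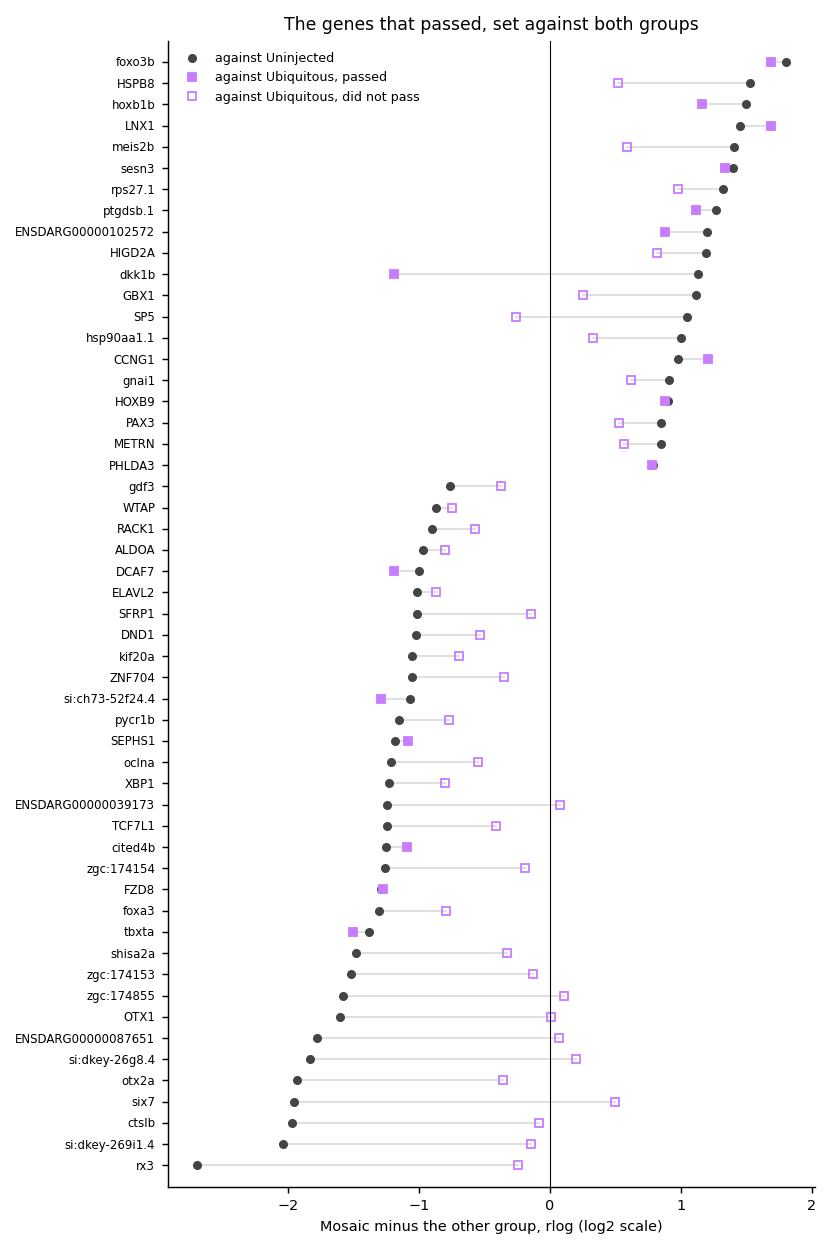
Difference of ‘Mosaic’ cells from ‘Uninjected’ (black circles) and from ‘Ubiquitous’ (purple squares, filled where they passed) on the rlog scale (x axis, log2) for 53 of the 54 genes that passed against ‘Uninjected’, ordered by that difference. The 9 filled squares on the right include *foxo3b* at 1.69, and the square of *dkk1b* lies at -1.19. Those of *rx3*, *otx2a* and *ctslb* are open and between -0.36 and -0.08.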

How the data were processed

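GFP+ or uninjected cells were sequenced by the authors as CEL-Seq2 libraries, aligned with Bowtie2 2.3.1 to GRCz10 and counted with HTSeq 0.6.1, as the submitters' processing notes and methods name them. Whether strand was used is not given in the sources used here. The authors deposited log2-scale rlog values for 6 libraries, and 0 further columns were left unused. As the unit is log2, limma 3.58.1 (R 4.3.3) was fitted over all 6 libraries with a variance trend, with Benjamini-Hochberg adjustment over the 3905 genes of mean rlog of at least 2 and a false discovery rate of 0.1. The samples were grouped by their labels.

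Counts were inferred in Python 3.11.15 (numpy 2.4.6, scipy 1.17.1, pandas 2.3.3) by inverting the rlog transformation. They are not the authors' counts. The fit and the inversion were tested on simulated data. Symbols came from a table that named 3822 of the tested genes, some of them in human style. Coordinates of the GRCz12tu annotation served only to show which genes neighbour each other, and sequences were not used here.

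Every gene that passed could be named, except 1 that is not reported here. Library values were given for the 12 largest rises and 15 largest falls among genes that passed without overlap of the groups, and for listed genes that were key members or passed. The genes and lists were chosen with earlier results of these data known. Alternatives were no filter, a mean of at least 4, quantile normalization, median centring, no or robust variance trend, 4 libraries alone, the replicate block, an adjusted p under 0.05, voom on the inferred counts, lists matched by symbol or synonym only, and each library left out.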

Additional observations from a re-analysis of the deposited data

How the results depend on the processing

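Under every alternative, each of the 54 genes that could be fitted kept its direction. The number that passed was 6 without a filter (1 higher and 5 lower, with 795 genes at an unadjusted p under 0.05) and 18 at a mean rlog of at least 4 (6 higher and 12 lower), where more or fewer genes were tested. With each library left out it ran from 25 to 64, from 7 to 24 for genes higher in ‘Mosaic’ and from 18 to 41 for genes lower, the lower ends without a ‘Mosaic’ library and the upper ends without a ‘Ubiquitous’ library or, for the genes lower in ‘Mosaic’, without ‘Uninjected’ library 2. A group left with 1 library is assumed there to vary like the others. The other alternatives gave 44 to 67 genes, and 17 of the 54 passed in each fit that kept the filter, 1 library left out included. With the replicate block, 57 genes passed (21 higher and 36 lower), and the calls for *PAX3*, *METRN* and *WTAP* were lost. Same-numbered libraries did not deviate together (correlation -0.12 between ‘Mosaic’ and ‘Uninjected’), so the numbers were not taken as pairs. A crossed replicate block, chosen after the data were seen, gave 57 genes (22 higher and 35 lower). Among genes that did not pass, the difference of *AXIN2* ran from -0.24 to 0.40 and that of *hsp70l* from -0.24 to 0.12 with a library left out. Differences on the rlog scale are shrunken: with voom on the inferred counts, that of *rx3* was -5.97. Median differences of gene lists moved by more than the spread between replicates in 57 of 591 cases. The precision is limited by 2 libraries per group and by the 58352 counts of ‘Uninjected’ library 1.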

Other observations

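Some genes with a mean rlog under 2 had counts in both ‘Mosaic’ libraries and a higher pooled share there than in ‘Uninjected’. They were chosen after their values were seen, and in the fit without a filter none of those named here passed. *isg15*, an interferon-induced ubiquitin-like protein, had 6 and 10 inferred counts in the ‘Mosaic’ libraries, with 0 in each of the other 4, a pooled share at least 6.38-fold higher than the 3 counts that a count of 0 allows over both ‘Uninjected’ libraries (adjusted p = 0.374). None of 2 tested interferon and innate response genes passed. The summed level of that list was 174.9 and 179.0 CPM in ‘Mosaic’, within the 85.7 to 194.2 of ‘Uninjected’. *RBL2*, a retinoblastoma-family repressor of the cell cycle, had 15 and 16 counts against 0 and 3 in ‘Uninjected’, a 12.4-fold higher share (95% interval 3.86 to 63.2, adjusted p = 0.157). *casp8*, an initiator caspase, had 13 and 11 against 0 and 4, a 7.18-fold higher share (95% interval 2.47 to 28.5, adjusted p = 0.291). *bbc3*, a proapoptotic BH3-only gene also called Puma, had 14 and 12 against 1 and 8, a 3.46-fold higher share (95% interval 1.57 to 8.39, adjusted p = 0.569). *isg15* and *RBL2* met a count rule, at least 16 counts over the 4 libraries and 0 in 1 group or a share ratio past 8. Most of the 18 genes that met this rule had a higher share in ‘Uninjected’. *casp8* and *bbc3* did not meet it. None of 11 tested genes of the apoptosis machinery passed, and the members of that list under the filter are not all given here. Other genes under the filter went the other way, among them *PERP* (5 and 4 against 2 and 13) and *nfkbiab* (3 and 2 against 1 and 16), with higher pooled shares in ‘Uninjected’.

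Of the anterior neural and eye field list, 10 detected genes lay under the filter, 7 with a higher pooled share in ‘Uninjected’ and 3 with a higher one in ‘Mosaic’. The same split over all genes under the filter was not computed, so these numbers are not read as a result. Members on both sides rest on few counts, as *emx3* and *foxd1* with 1 count each, in ‘Uninjected’ library 2. *PAX6* (ENSDARG00000103379), a paired-box gene of the eye, had 5 and 2 counts in the ‘Mosaic’ libraries and 0 in each of the other 4, a share at least 2.79-fold higher than the 3 counts that a count of 0 allows over both ‘Uninjected’ libraries (adjusted p = 0.807). *SP8* (ENSDARG00000011870) had 1 and 1 against 0 and 0. *OTX2*, a further Otx gene, had 1 and 1 counts in the ‘Mosaic’ libraries against 2 and 38 in ‘Uninjected’, a 16.7-fold higher share in ‘Uninjected’ (95% interval 4.33 to 143, adjusted p = 0.549). *FEZF2*, a forebrain zinc-finger gene, had 0 and 0 against 0 and 25, so its counts came from 1 library (adjusted p = 0.807). Beyond that list, *ctslb.4*, of the cathepsin L-like run, had 1 and 2 against 4 and 42, a 12.8-fold higher share (95% interval 4.12 to 64.4, adjusted p = 0.184). *kazald2* had 2 and 1 against 5 and 31 (adjusted p = 0.157). *NANOS3*, a germ-cell RNA-binding protein, had 0 and 2 against 6 and 19, a 10.4-fold higher share (95% interval 2.60 to 91, adjusted p = 0.374).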
